A study of Mus musculus with 86 samples.

Results

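The core histone genes encode H2A, H2B, H3 and H4, the proteins around which DNA is wrapped in the nucleosome. Members were the protein-coding genes of the RefSeq gene table (GRCm38.p6, the assembly of mm10) whose current or older symbol names a clustered core histone. The rule found 61 of 21883 protein-coding genes, 57 by their current symbol and 4 by the older name only. Those 4 were H4f16 (Hist4h4), H2bu2 (Hist3h2ba), H2aw (Hist3h2a) and H4bc24 (Hist1h2br, an H2B gene under the older name). The members comprised 18 H2A, 18 H2B, 12 H3 and 13 H4 genes, and their median length was 487 bp. What was measured near them were SOX2 and CTCF peaks from chromatin immunoprecipitation with sequencing (ChIP-seq). Every peak within 50 kb of a member's gene body was used.

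Most core histone genes are replication-dependent: they are transcribed in S phase, lack introns, and give mRNAs that end in a stem-loop in place of a poly(A) tail. They lie in clusters, where NPAT and other factors gather in the histone locus body, and the largest mouse cluster on chromosome 13 is interspersed with transfer RNA (tRNA) genes, which RNA polymerase III transcribes. SOX2 is an HMG-box transcription factor of pluripotent cells. CTCF is a zinc finger protein of insulators and chromatin loop anchors.

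The cells were mouse embryonic stem cells of strain 129S5/SvEvBrd, kept on gelatin in medium with serum and leukemia inhibitory factor (mLIF). Asynchronous cells carried the label untreatment. Mitotic cells had been in 100 ng/ml nocodazole, which depolymerizes microtubules, for 6 hours and were then shaken off the dish, so arrest and drug exposure cannot be told apart. Of 86 libraries in the series, 8 were analysed here, 2 for each factor and condition, and the labels do not say that replicates came from separate cultures. The p-values therefore measure only the spread between libraries, which may be technical. The labels say embryonic stem cells, and a SOX2 region lay within 50 kb of 6 of 6 stem cell genes looked up (Pou5f1, Nanog, Sox2, Esrrb, Klf4 and Zfp42), as it did of 85.7% of all protein-coding genes, so this does not check the label; peak lists hold no expression.

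Replicates 1 and 2 had 90266 and 63504 SOX2 peaks in asynchronous cells and 1976 and 408 in mitosis. For CTCF the lists held 68328 and 67995, then 20142 and 15338. Read totals are not in the lists. A background was solved for single peaks from the deposited fold and p, and the lowest of each list was divided by its shortest peak width. It was 1.61 to 2.62 reads per 100 bp in the SOX2 libraries and 3.36 to 3.77 in the CTCF libraries, with mitotic and asynchronous libraries in the same range. Replicate 2 had the lower background for SOX2 in both conditions, 1.61 and 1.64 against 2.48 and 2.62. SOX2 replicate 2 also had the shorter list in both conditions, so mitotic SOX2 results are given by library. A result named for replicate 1 alone rests on that library.

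With their 50 kb flanks the members fell into 7 blocks covering 1120 kb. The first chromosome 13 block (17 members, from H2bc13 to H4bc24, 7 tRNA genes), the second (5 members, from H2ac12 to H2bc11, 9 tRNA genes) and the third (24 members, from H4c8 to H3c1, 14 tRNA genes) hold most of the largest cluster. The fourth chromosome 13 block holds H2bc1 and H2ac1, the testis forms of H2B and H2A. The chromosome 3 block has 10 members, the chromosome 11 block H2bu2 and H2aw, and the chromosome 6 block H4f16 alone.

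Promoter sequences were found for 56 of the 61 members (RefSeq, GRCm38.p6); the 250 bases before the start were used. H4c11, H4c12, H2bc3 and H4c1 are shown because they were the members whose promoters a mitotic SOX2 peak overlapped. H2bc22 is shown because it shared with H2ac22 the highest asynchronous SOX2 fold at a member promoter, and H2bc23 because its bases are identical to those of H4bc24. Capitals mark matches, on either strand, to TATAAA, to CCAAT, to the octamer ATTTGCAT, to a SOX core (CATTGT) or to a CTCF core (AGNNGGCGC). The sequences run 5′ to 3′ on the gene's strand, from chr13:21734784-21735033 (plus strand) for H4c11, chr13:21750554-21750803 (minus) for H4c12, chr13:23746484-23746733 (plus) for H2bc3, chr13:23761250-23761499 (minus) for H4c1, chr13:21787238-21787487 (plus) for H2bc22 and chr13:21810200-21810449 (minus) for H2bc23.
H4c11: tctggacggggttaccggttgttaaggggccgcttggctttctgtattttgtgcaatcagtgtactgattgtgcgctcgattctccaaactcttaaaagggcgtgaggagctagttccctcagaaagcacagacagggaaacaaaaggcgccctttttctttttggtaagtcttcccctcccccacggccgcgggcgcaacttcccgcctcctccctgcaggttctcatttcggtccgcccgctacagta
H4c12: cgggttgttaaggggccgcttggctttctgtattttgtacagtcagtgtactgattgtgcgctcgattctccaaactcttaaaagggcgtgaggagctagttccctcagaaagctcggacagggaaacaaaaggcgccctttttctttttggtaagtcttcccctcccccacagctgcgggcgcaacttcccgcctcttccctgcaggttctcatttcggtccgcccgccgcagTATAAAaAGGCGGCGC
H2bc3: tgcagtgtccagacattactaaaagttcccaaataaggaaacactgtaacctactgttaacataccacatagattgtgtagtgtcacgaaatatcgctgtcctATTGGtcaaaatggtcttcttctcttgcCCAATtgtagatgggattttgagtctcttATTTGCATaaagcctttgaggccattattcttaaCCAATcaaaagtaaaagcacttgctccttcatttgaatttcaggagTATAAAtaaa
H4c1: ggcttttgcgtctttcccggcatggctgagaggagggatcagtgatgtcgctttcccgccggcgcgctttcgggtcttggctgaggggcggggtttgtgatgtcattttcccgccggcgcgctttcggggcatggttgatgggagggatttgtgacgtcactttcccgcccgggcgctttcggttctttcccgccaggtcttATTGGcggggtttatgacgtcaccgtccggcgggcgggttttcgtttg
H2bc22: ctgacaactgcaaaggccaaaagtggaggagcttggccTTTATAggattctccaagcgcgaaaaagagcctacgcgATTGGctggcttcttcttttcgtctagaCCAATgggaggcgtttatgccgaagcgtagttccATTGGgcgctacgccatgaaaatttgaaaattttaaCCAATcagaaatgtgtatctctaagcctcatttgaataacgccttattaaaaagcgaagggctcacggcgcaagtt
H2bc23: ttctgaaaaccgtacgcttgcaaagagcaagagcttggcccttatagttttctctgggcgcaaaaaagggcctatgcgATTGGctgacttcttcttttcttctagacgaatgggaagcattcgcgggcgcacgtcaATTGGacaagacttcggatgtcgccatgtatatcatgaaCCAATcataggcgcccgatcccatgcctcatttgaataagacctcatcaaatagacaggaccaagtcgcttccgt

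The CCAAT box, bound by NF-Y, was the most common of these motifs in the members. It occurred in 45 of 56 member promoters (80.4%) against 36.3% of all protein-coding promoters of the same length. All 18 H2A and all 16 H2B promoters had it, and so did 8 of 10 H3 but 3 of 12 H4 promoters. A TATA box occurred in 25 of 56 (44.6%; all genes 12.4%). The octamer, the site of the POU factors OCT1 and OCT4, was in 13 of 56 (23.2%; all genes 1.61%), 7 of them H2A and 6 H2B, which often face each other across 1 shared promoter. The octamer count leaves out H2bc6, where the promoter sequence at chr13:23585971-23586220 carries it and the gene's other promoter sequence does not. H2bc3 above carries the octamer, and H2bc22 carries 4 CCAAT boxes but no octamer in this window. The SOX core was in 2 of 56 promoters (3.57%; all genes 9.68%), H2bc12 and H2ac12, and the CTCF core in 2 (3.57%; all genes 7.43%), H4c12 and H4c6. Among the 43 members with a SOX2 region at the promoter, 2 had the SOX core (4.65%), against 7.78% of all genes with a SOX2 region at the promoter. Among the 17 with a CTCF region, 1 had the CTCF core, against 19.5% of all genes with a CTCF region at the promoter.

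In asynchronous cells SOX2 was called at most core histone genes. Overlapping peaks of both libraries were merged, and a merged region with a peak in each was kept as a region. At the promoter, taken as the 250 bases before the start, a SOX2 region was present in 43 of 56 members, 76.8% (95% Wilson interval 64.2 to 85.9, counting error only), against a background of 31.5% of protein-coding genes. Asynchronous replicate 1 had a SOX2 peak at 48 of the 56 promoters and replicate 2 at 40. By single library the shares for all genes were 43.8% and 29.4%, so the members lay above them in both. Within 1 kb of the gene body 53 of 61 members had a SOX2 region. The background there was 56.3%, but that window scales with gene length, and most histone genes are far shorter than 1 kb.

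**Figure D1:**
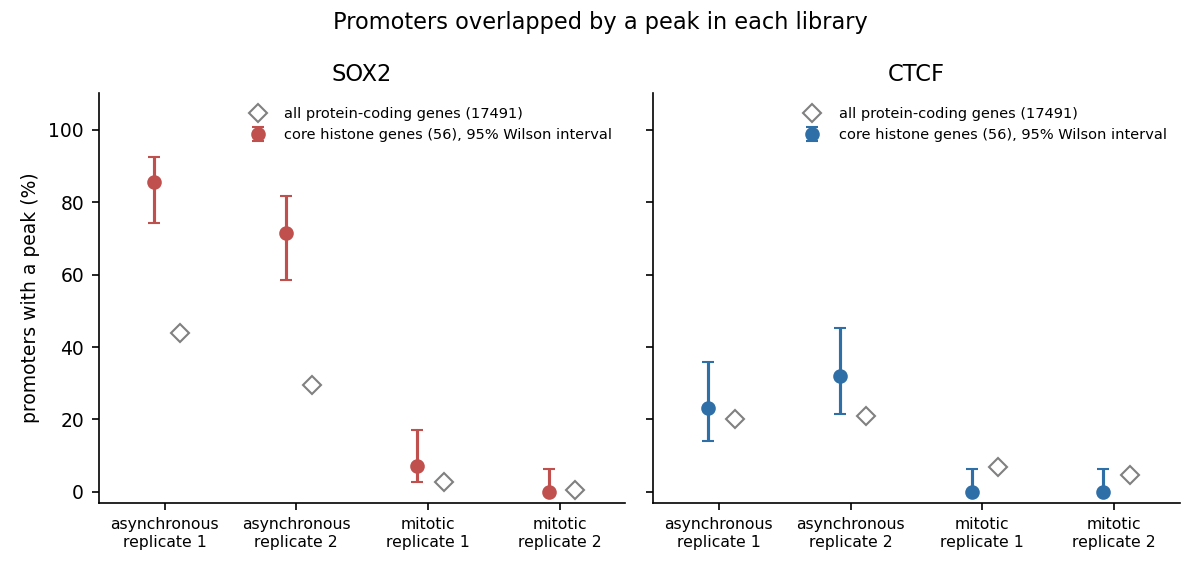
Share of promoters (250 bases before the start) overlapped by a peak, in percent, for each of the 8 libraries. Filled circles are the 56 core histone genes with 95% Wilson intervals and open diamonds all protein-coding genes with a promoter sequence; the SOX2 circles lie at 85.7% and 71.4% in asynchronous cells and at 7.14% and 0% in mitotic cells, and the mitotic CTCF circles both at 0%.

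H4 genes had the highest share with SOX2 at the promoter, 11 of 12, followed by 12 of 16 H2B, 13 of 18 H2A and 7 of 10 H3. The differences between the families rest on few genes each and were not tested. The 43 members shared 32 separate SOX2 regions, because neighbouring genes, often a divergent H2A and H2B pair, lay under 1 region. Strength was ranked within each asynchronous list by the region's highest fold, and the percentiles of both lists were averaged. The member promoters had a median strength percentile of 74.1, with a range of 41.2 to 96.1, against 49.8 for the regions at all promoters. The fold is the authors' ratio of ChIP signal at the summit to the local background, used here only within its list.

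The strongest SOX2 region at a member promoter covered the divergent pair H2ac22 and H2bc22. Its fold was 20.3 in asynchronous replicate 1 and 14.5 in replicate 2. H2bc6 followed with 15.1 and 14.6, then H4c11 with 11.8 and 9.52. Both libraries thus placed the H2A and H2B pair and H2bc6 highest. At H4c4 the fold was 11.7 and 8.68, at H2bc3 it was 11 and 5.88, and at H2ac12 and H2bc12, which share 1 region, 9.06 and 8.22. H3c6, a replication-dependent H3 gene, had 8.74 and 10.0, the latter ahead of H4c11 in replicate 2. These members all lie in the chromosome 13 blocks. On chromosome 3 the highest fold at a gene was at H3c14, 13.4 and 12.2, where the region lay over the gene and outside the 250 bases. At the histone H4 gene H4f16 on chromosome 6 the folds were 6.24 and 7.52, and at H2bu2 on chromosome 11 they were 7.80 and 4.26.

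The blocks differed in how many promoters carried SOX2. It was 20 of 21 in the third chromosome 13 block, 5 of 5 in the second, 2 of 2 on chromosome 11 and 1 of 1 on chromosome 6. It was 12 of 17 in the first chromosome 13 block and 3 of 8 on chromosome 3. At the testis genes H2bc1 and H2ac1 it was 0 of 2: replicate 1 had a peak of fold 2.61 over their shared promoter and replicate 2 had none. The fewest SOX2 regions within 50 kb, 1, were also at this pair, against a median of 12 and a highest count of 22 per member.

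Near-identical gene copies coincided with missing peaks. A run of at least 100 identical bases with the promoter of another, non-overlapping member was found in 10 of 56 members, H2bc23, H2ac23, H4c17, H4c18, H2ac24, H4bc24, H3c14, H3c15, H2ac18 and H2ac19. SOX2 regions were at 3 of these 10 promoters and at 40 of the other 46 (87.0%). CTCF regions were at 0 of the 10 and at 17 of the 46 (37.0%). The nearest CTCF summit of asynchronous replicate 1 was at +22134 bp from the start of H2bc23, and the nearest SOX2 summit at -10718 bp (upstream). How the authors treated reads with several matches is not given in the sources used here, so absence of a call at these 10 genes cannot be told apart from reads that could not be placed. Every promoter without SOX2 in the first chromosome 13 block was among these 10. So were H3c14 and H3c15 on chromosome 3, but not H2ac21, H3c13 and H2bc18. The block counts above carry the same limit.

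CTCF was less common at member promoters than SOX2. A CTCF region was present at 17 of 56, 30.4% (Wilson interval 19.9 to 43.3), against a background of 18.9%. By library it was 13 of 56 (23.2%; all genes 20.1%) and 18 of 56 (32.1%; all genes 20.9%), and the interval of replicate 1, 14.1 to 35.8, includes the share of all genes. H2B promoters had CTCF in 8 of 16 cases, H2A in 5 of 18, H3 in 2 of 10 and H4 in 2 of 12. Of the 17, 16 also had SOX2; 27 members had SOX2 alone, 1 had CTCF alone and 12 had neither. The exception with CTCF alone was H3c13 on chromosome 3, a feature picked after its values were seen.

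The CTCF regions at member promoters were weak within their lists. Their median strength percentile was 27.0, against 52.1 for the CTCF regions at all promoters. The folds of the peaks overlapping the 250 bases had a median of 3.21 in replicate 1 and 3.29 in replicate 2. At H4c11 they were 10.5 in replicate 1 and 2.67 in replicate 2, the highest of the members in replicate 1. At H3c6 replicate 2 had 4.81, its highest, and replicate 1 had no peak in these bases. With peaks of a fold of at least 5 the count of promoters with a CTCF region was 2 in place of 17, and that with a SOX2 region 29 in place of 43. Within 1 kb of the gene body 41 of 61 members had a CTCF region (background 60.4%), which became 20 for the gene body alone.

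The summits of the 2 factors sat differently around the gene starts. Of the members with a SOX2 summit within 500 bp of the start, 36 in each library, 17 and 18 had it upstream, and the median offset was 9 bp and 1.5 bp. For CTCF, 28 and 30 members had such a summit, with 6 and 7 upstream and a median offset of 166 and 154 bp into the gene. Both libraries of each factor gave this arrangement. Members that share a region share a summit, so these are not independent genes, and no test was made. No share over all protein-coding genes is set beside these counts. Many of the CTCF peaks were weak. With a fold of at least 5, 10 in place of 41 members had a CTCF region within 1 kb, and 33 in place of 53 a SOX2 region.

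**Figure D2:**
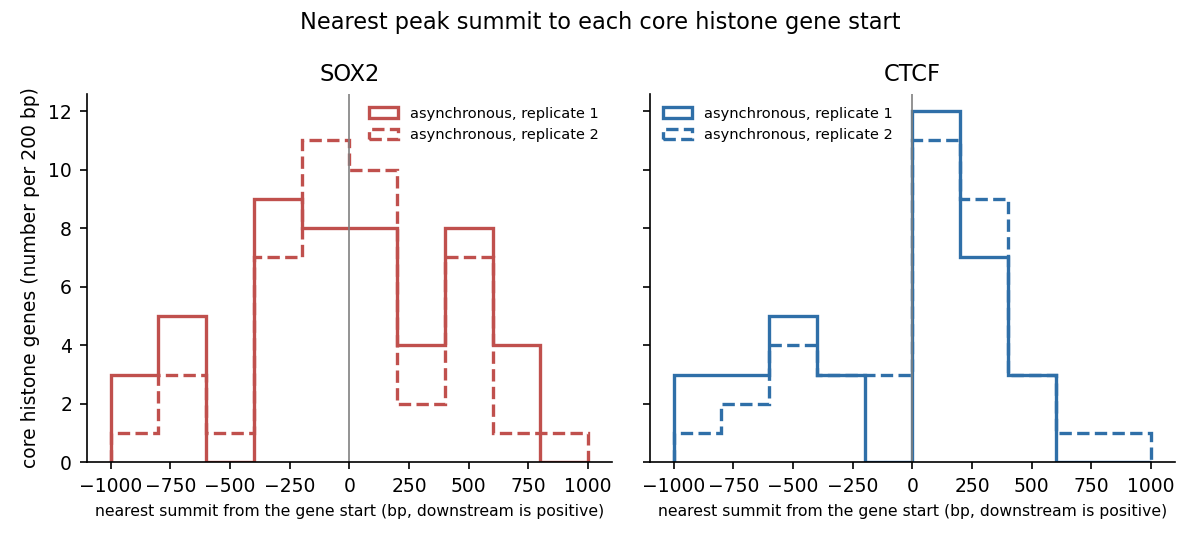
Number of core histone genes (in 200 bp steps) by the distance in bp of the nearest asynchronous summit from the gene start, SOX2 on the left and CTCF on the right, positive downstream. Solid lines are replicate 1 and dashed lines replicate 2; SOX2 summits lie on both sides of the start, and most CTCF summits within 500 bp lie downstream.

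Over the whole windows both factors were dense. There were 99 SOX2 regions in 1120 kb, 88.4 per Mb against 19.0 per Mb over the chromosomes, a ratio of 4.66. CTCF had 77 regions, 68.8 per Mb against 21.3, a ratio of 3.23. SOX2 was denser between the first and last member of each block, 126 per Mb, than in the flanks, 65.7 per Mb, and CTCF had 81.0 and 61.4 per Mb. All 61 members had at least 1 region of each factor within 50 kb, and so did most protein-coding genes (backgrounds of 85.7% for SOX2 and 87.7% for CTCF). Of the 99 SOX2 regions 36 overlapped a CTCF region (36.4%), against 20.3% of all SOX2 regions. At the limit of the windows, the last SOX2 region inside lay 47.8 kb from a member, with folds of 2.69 and 5.34, and the first outside lay at 50.3 kb, with 3.87 and 3.34. For CTCF they lay at 49.0 kb, with 3.21 and 3.57, and at 56.3 kb, with 7.26 and 8.17.

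In mitosis fewer peaks of both factors were called near the core histone genes. SOX2 had 163 and 132 peaks in the windows in asynchronous cells and 27 and 3 in mitotic cells. CTCF had 94 and 96, and 33 and 24. The groups did not overlap for either factor. Mean counts were 148 ± 21.9 (SD, n = 2) against 15.0 ± 17 (SD, n = 2) for SOX2, 9.83-fold fewer, and 95 ± 1.41 against 28.5 ± 6.36 for CTCF, 3.33-fold fewer. The two-sided exact permutation test gave p = 0.333 for each, the smallest it can give with 2 against 2 libraries. Over the whole lists SOX2 peaks were 64.5-fold and CTCF peaks 3.84-fold fewer.

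**Figure D3:**
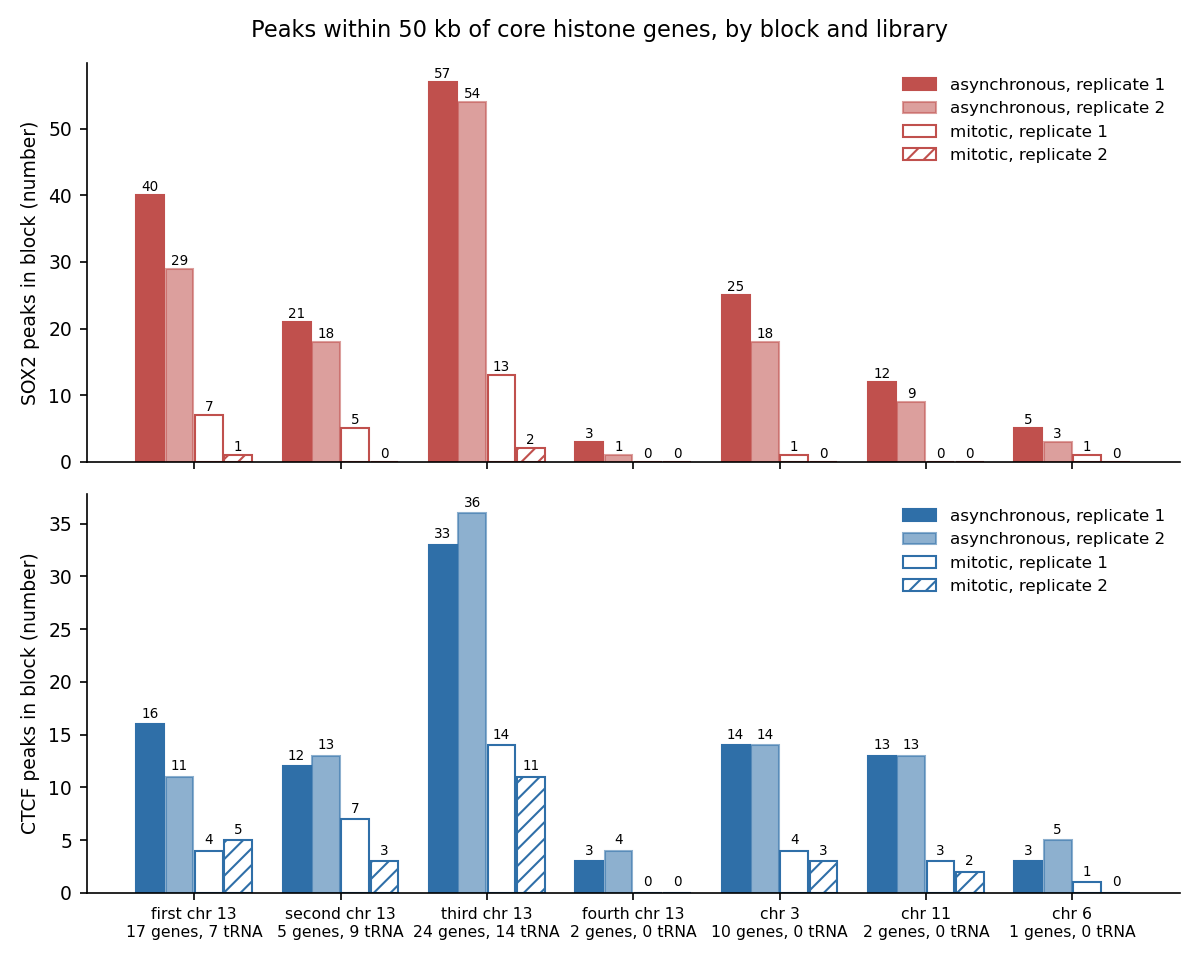
Number of peaks in each of the 7 blocks (members with 50 kb on either side), SOX2 above and CTCF below. Filled bars are the asynchronous and open bars the mitotic libraries; the third chromosome 13 block has 57 and 54 SOX2 peaks in asynchronous and 13 and 2 in mitotic cells, and the fourth, with the testis genes, has no mitotic peak of either factor.

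The windows therefore held a larger part of the SOX2 lists in mitosis than in asynchronous cells. It was 0.181% and 0.208% in asynchronous cells and 1.37% and 0.735% in mitosis, the last resting on 3 peaks. For CTCF the shares were 0.138% and 0.141%, and 0.164% and 0.156%. Every mitotic SOX2 peak in the windows overlapped an asynchronous SOX2 peak. Of the 33 and 24 mitotic CTCF peaks 3 and 2 overlapped no asynchronous CTCF peak. No share over the whole lists is set beside these counts. They therefore show neither a trait of the windows nor a difference between the factors.

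Of the 99 SOX2 regions, 21 were called in mitotic replicate 1 (21.2%, Wilson interval 14.3 to 30.3), 3 in replicate 2 (3.03%, 1.04 to 8.53) and 3 in both. The backgrounds over all 51672 SOX2 regions were 3.37%, 0.755% and 0.675%. Of the 77 CTCF regions, 26 were called in replicate 1 (33.8%, 24.2 to 44.9), 18 in replicate 2 (23.4%, 15.3 to 34.0) and 18 in both. The CTCF backgrounds were 33.0%, 25.4% and 24.5%, close to the shares in the windows. Away from tRNA genes the CTCF shares were 24.6% and 16.9% of 65 regions, against 32.9% and 25.4% of such regions over the genome. The mean share called was 28.6% ± 7.35 (SD, n = 2) for CTCF and 12.1% ± 12.9 for SOX2, a difference of 16.5 percentage points (two-sided exact permutation test, p = 0.333, the smallest possible). The antibodies differ, so this compares detection.

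The tRNA genes of the clusters lay beside a large part of the mitotic peaks. All 30 tRNA genes in the windows, of 408 in the table, belonged to the first 3 chromosome 13 blocks. Of 27 mitotic SOX2 peaks of replicate 1, 14 lay within 1 kb of a tRNA gene, and so did 3 of 3 in replicate 2. Of 21 SOX2 regions near a tRNA gene 11 were called in replicate 1 (52.4%) and 3 in replicate 2 (14.3%), all 3 in both libraries. Of the 78 regions away from tRNA genes 10 were called in replicate 1 (12.8%) and 0 in replicate 2, which allows a share of up to 4.69% (Wilson). The same classes over the genome gave 44.4% and 3.20% in replicate 1, and 9.76% and 0.719% in replicate 2. The share at tRNA genes was thus the higher one in the histone clusters and elsewhere. Away from tRNA genes the limit of 4.69% lies above 0.719%, so a lower share in replicate 2 was not detectable with 78 regions.

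Each of the 3 SOX2 regions that both mitotic libraries called overlapped a tRNA gene. The one at chr13:23516619-23518352, 12.7 kb before H4c8, had asynchronous folds of 13.4 and 9.54 and mitotic folds of 6.43 and 6.80. The region at chr13:21881497-21883446, 44.0 kb from H4bc24, had 9.81 and 14.1, and 3.19 and 6.18. The region at chr13:23503304-23504411, 26.6 kb from H4c8, had 7.93 and 7.57, and 5.66 and 3.10. None of them was at a core histone gene.

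**Figure D4:**
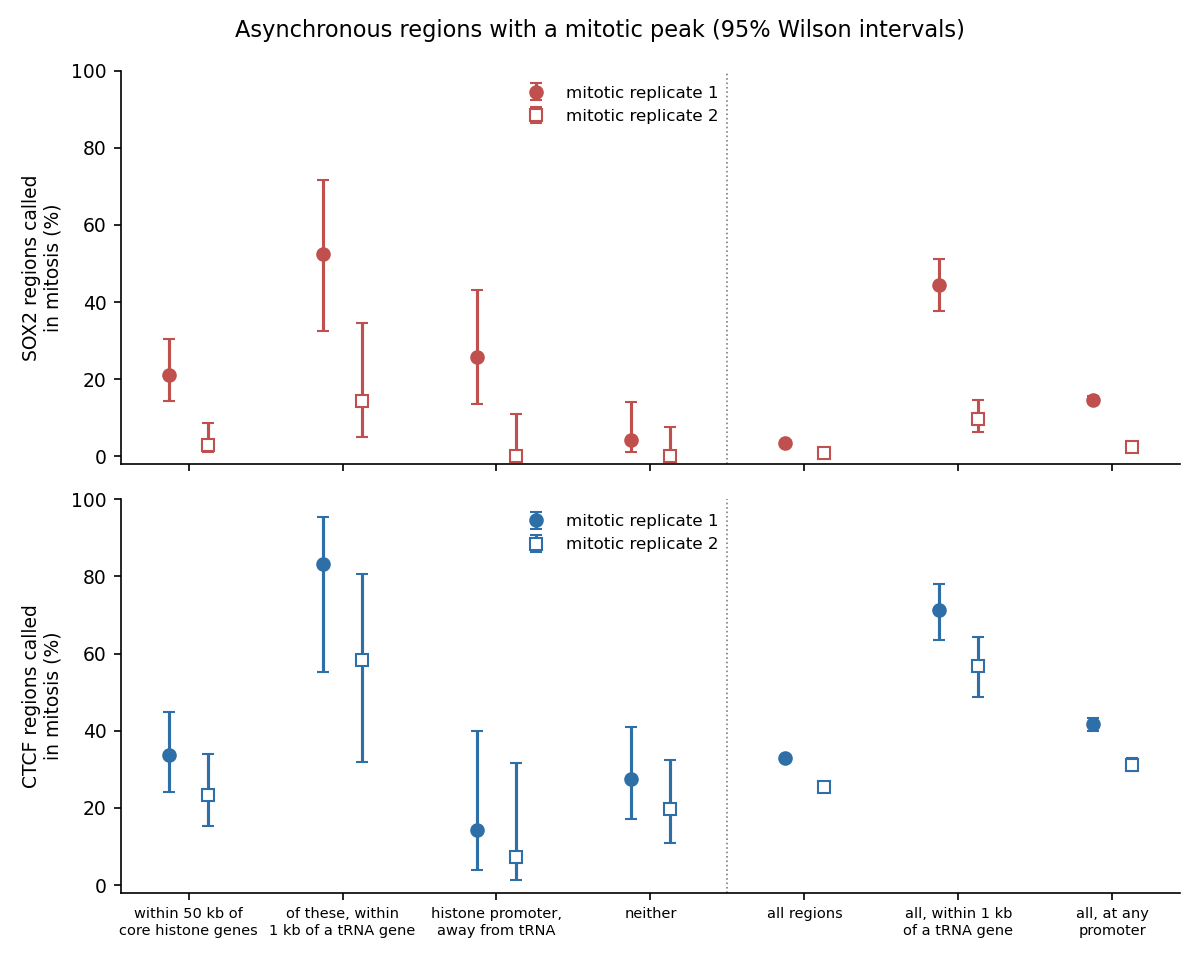
Share of asynchronous regions that were called in each mitotic library, in percent with 95% Wilson intervals (counting error only), SOX2 above and CTCF below; circles are replicate 1, squares replicate 2. Left of the dotted line are regions near core histone genes and their classes, right of it regions over the genome; near tRNA genes the SOX2 shares are 52.4% and 14.3% and the CTCF shares 83.3% and 58.3%.

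At the core histone promoters themselves SOX2 was called in 1 mitotic library only. Of the 32 SOX2 regions at member promoters 9 were called in replicate 1 (28.1%, 15.6 to 45.4) and 0 in replicate 2. Away from tRNA genes 8 of 31 were called in replicate 1 (25.8%). Over the regions at all protein-coding promoters the shares were 14.7% and 2.55%, at a lower median strength percentile (49.8 against 74.3). The windows held 47 regions that were neither at a member promoter nor near a tRNA gene. Of these 2 were called in replicate 1 (4.26%, 1.17 to 14.2) and 0 in replicate 2 (upper limit 7.56%). The share over all SOX2 regions was 3.37% in replicate 1. It includes promoter regions (14.7%) and regions near tRNA genes (44.4%), so it is not a like comparison. Part of the 9 called promoter regions had the mitotic peak beside the 250 bases. A mitotic peak of replicate 1 overlapped the bases themselves in 4 of 56 members (7.14%, 2.81 to 17; background 2.84%), and one of replicate 2 in 0 of 56 (upper limit 6.42%; background 0.469%). Replicate 2 had both the lower background and the shorter list, and their part in this difference was not tested.

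The 4 promoters were H4c11, H4c12, H2bc3 and H4c1, all on chromosome 13 and 3 of them H4 genes. At H4c11 the SOX2 fold was 11.8 and 9.52 in asynchronous cells and 8.04 in mitotic replicate 1, the highest mitotic SOX2 fold in the windows. At H4c12 it was 8.83 and 7.16, and 4.04. The sequences of H4c11 and H4c12 printed above share a run of 72 bases. At H2bc3 the folds were 11 and 5.88, and 3.62, and at H4c1 they were 7.43 and 4.16, and 3.35. No peak was called at any of the 4 in mitotic replicate 2.

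Within 1 kb of the gene body 15 of 61 members had a SOX2 peak in mitotic replicate 1 (24.6%, Wilson interval 15.5 to 36.7; background 6.67% of protein-coding genes) and 0 in replicate 2 (upper limit 5.92%; background 1.26%). Besides those 4 they were H4c8 (5.07), H4f16 (4.36), H2bc6 (4.32) and the neighbours H2bc7 and H2ac7 (4.03). The SOX2 region at H4c8 also overlapped a tRNA gene. The others were H4c9, H2ac11 and H2bc11 under 1 peak (3.56), H3c1 (3.35, as at its neighbour H4c1) and the pair H2ac22 and H2bc22 (2.78). Each value is the mitotic fold of replicate 1. The pair that ranked highest in asynchronous cells thus had the lowest of these mitotic folds. H4 genes made up 6 of the 15 members, H2B 5, H2A 3 and H3 1. Neighbours among the 15 share peaks of this 1 library, so they are not independent observations. The Wilson interval and the family counts do not allow for this.

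Strong SOX2 regions that were called in neither mitotic library lay among them. The strongest, at chr13:21864984-21866772, 27.5 kb from H4bc24, had folds of 24.0 and 29.4. The next, at chr13:23738665-23742895, overlapped the linker histone gene H1f2 and had 20.3 and 25.3. The regions at H3c14 (13.4 and 12.2), near Fcgr1 18.8 kb from H2bc18 (7.46 and 14.3) and at H4c4 (11.7 and 8.68) followed. Strong regions were thus found both among the called and the uncalled. At or above the 80th strength percentile 10 of 22 regions were called in replicate 1 (45.5%, genome 7.37%). Below it 11 of 77 were (14.3%, genome 1.92%). Replicate 2 called 3 of the 22 (13.6%, genome 2.46%) and 0 of the 77 (genome 0.137%).

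Mitotic CTCF peaks did not reach the promoter bases of the members, although some lay in regions that did. A mitotic CTCF peak overlapped the 250 bases in 0 of 56 members in both libraries (upper limit 6.42%), where the backgrounds were 6.77% and 4.56%. The limit lies above the background of replicate 2 and just under that of replicate 1. It counts all 56 promoters as separate, yet some divergent pairs share bases. In addition, 10 are near copies, none with a CTCF region in asynchronous cells. A difference was therefore not detectable in either library. Of the 14 CTCF regions at member promoters 2 were called in replicate 1 and 1 in replicate 2, against 41.7% and 31.1% of the CTCF regions at all promoters, which were stronger (52.1 against 26.1). Within 1 kb of the gene body mitotic CTCF peaks were found at 9 of 61 members in replicate 1 (14.8%, 7.96 to 25.7) and at 5 in replicate 2 (8.2%, 3.55 to 17.8). The backgrounds were 32.4% and 25.6% of protein-coding genes, most of which are longer than a histone gene and so have wider windows. The 5 were H4c11, H4c8, H3c6, H2bc6 and H4c3. At H4c8 the called CTCF region lay 0.534 kb from the gene and overlapped a tRNA gene. H2bc6 is the longest member, at 37455 bp. Its called CTCF region lay inside the annotated gene and overlapped neither of its promoter sequences.

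At H4c11 the CTCF region, at chr13:21733241-21735030, had asynchronous folds of 10.5 and 9.22 and mitotic folds of 6.99 and 5.97, and it reached into the promoter printed above. At H3c6 the values were 9.35 and 6.61, and 5.61 and 4.09. At H4c3 they were 10.7 and 5.78, and 4.21 and 4.20, and this region was also at the linker histone gene H1f6. H4c11 was the single member with mitotic peaks of both factors among the 4 promoters listed for SOX2, and its SOX2 and CTCF regions overlapped. At H2bc6 the folds were 11.3 and 6.03, and 8.05 and 6.16.

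The strongest CTCF regions of the windows lay away from the genes and were called in both mitotic libraries. The region at chr3:96286830-96288582, 16.6 kb from H2bc18, had asynchronous folds of 36.6 and 31.5 and mitotic folds of 26.0 and 18.3. A second, at chr3:96277410-96279045, 7.22 kb from H2bc18, had 13.4 and 14.2, and 9.81 and 7.65. On chromosome 13 the region at chr13:23792386-23793063, 30.0 kb past H3c1, had 11.4 and 12.1, and 3.74 and 2.76, and on chromosome 11 that at chr11:58916503-58917553, 31.4 kb from H2bu2, had 13.2 and 9.97, and 9.18 and 6.79. These lie in the flanks of their blocks. Of the 18 CTCF regions called in both libraries 14 were in the flanks, among 43 regions there. The other 4 lay between the first and last member, among 34. The 7 of the 18 that were within 1 kb of a tRNA gene all lay in the flanks, and the split was not tested. Over the genome 24.5% of CTCF regions were called in both. At or above the 80th strength percentile 9 of 12 CTCF regions were called in both (75.0%; genome 69.9%), and below it 9 of 65 (13.8%; genome 11.5%).

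Among the strong CTCF regions called in neither library were chr11:58970884-58971370, 15.7 kb from H2aw (11.5 and 9.57), chr13:23732387-23733055, 12 kb from H3c3 (9.91 and 10.5), chr11:58927838-58928527, 20.4 kb from H2bu2 (12.6 and 8.36), chr13:23701050-23701755 near H4c3 (8.48 and 10.1) and chr11:58967158-58967922, 12 kb from H2aw (6.13 and 9.07). They were the 5 strongest of this kind, and 3 of the 5 lie in the chromosome 11 block.

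CTCF calls near tRNA genes were frequent in mitosis as well. Of 12 CTCF regions within 1 kb of a tRNA gene 10 were called in replicate 1 (83.3%) and 7 in both, against 16 and 11 of 65 away from them. Over the genome the shares in replicate 1 were 71.3% and 32.9%. Among them were weak regions. The regions at chr13:23517061-23517372, chr13:23500470-23500807 and chr13:23530276-23530510, at strength percentiles of 7.72, 9.32 and 8.67, were called in both mitotic libraries. The last is the region counted at H4c8 above. The first overlapped the SOX2 region before H4c8 that was called in both mitotic libraries; its CTCF folds were 2.81 and 2.55 in asynchronous and 6.49 and 4.54 in mitotic cells. Folds of lists called separately show no change of occupancy.

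**Figure D5:**
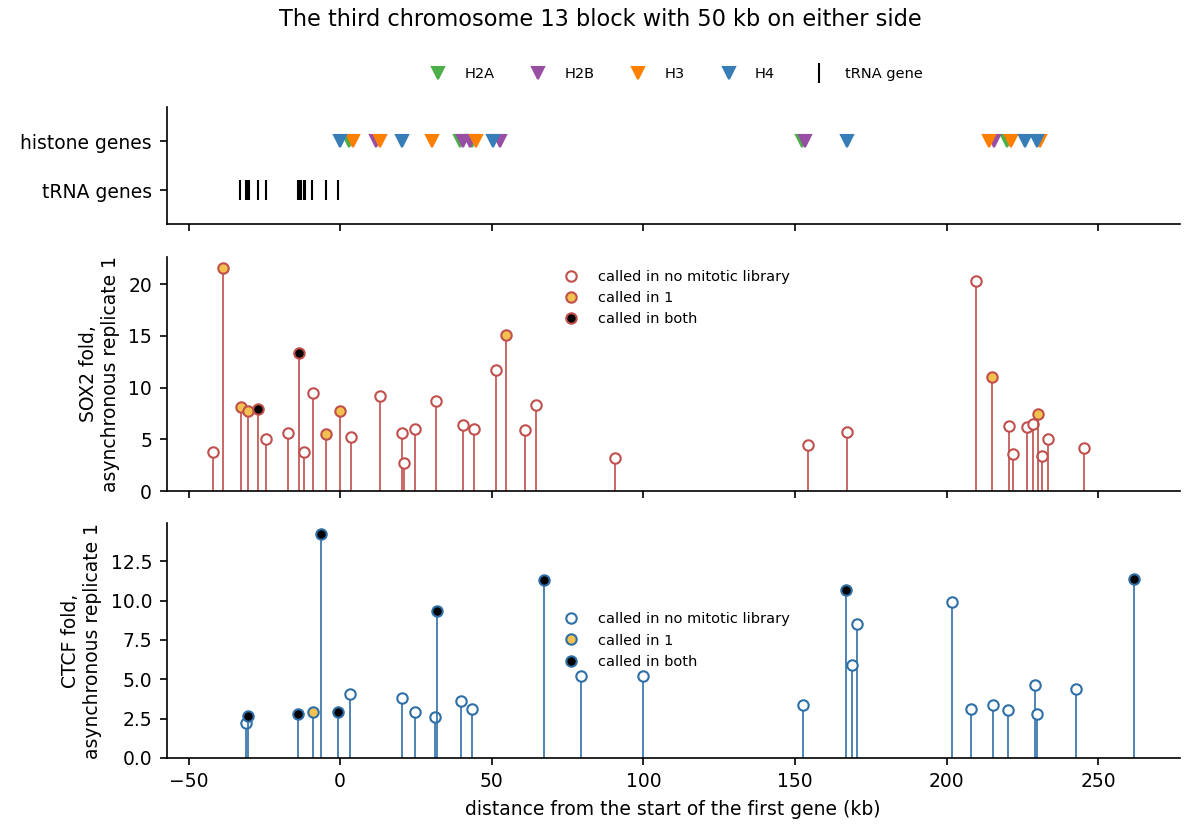
Map of the third chromosome 13 block: distance in kb from the start of the first gene, H4c8, with histone genes by family and tRNA genes on top, and below them each SOX2 and CTCF region at its deposited fold in asynchronous replicate 1. The fill gives the number of mitotic libraries that called the region; both SOX2 regions called in both libraries and most called CTCF regions of low fold lie among the tRNA genes before H4c8.

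By block, the second chromosome 13 block had 4 of 13 SOX2 regions called in mitotic replicate 1, the third 10 of 37 and the first 5 of 23. The chromosome 3 block had 1 of 14, a region near Bola1, and the chromosome 6 block 1 of 3, at H4f16. The chromosome 11 block had 0 of 8 and the fourth chromosome 13 block 0 of 1. For CTCF the blocks had 6 of 10, 9 of 28, 3 of 9, 4 of 12, 1 of 2, 3 of 13 and 0 of 3 in the same order. The blocks without tRNA genes thus gave 2 of 26 SOX2 calls and 8 of 30 CTCF calls in replicate 1. In replicate 2 they gave 0 of 26 and 5 of 30. The SOX2 calls of replicate 2 lay in the first chromosome 13 block (1) and the third (2). The numbers per block are small, and differences between blocks were not tested.

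Genes that work with the core histones were looked up in the same way. SOX2 regions were at the promoters of 4 of 7 linker histone genes, 6 of 7 histone variant genes outside the clusters, 10 of 21 genes of histone transcription and mRNA processing and 7 of 8 histone chaperone genes. CTCF regions were at 1, 2, 4 and 2 of them. Over all protein-coding genes the promoter shares were 31.5% for SOX2 and 18.9% for CTCF. Of all protein-coding genes 6.67% had a SOX2 peak of mitotic replicate 1 within 1 kb of the gene body. All the linker histone genes except H1f0 lay inside the windows, so they are not a separate set. Within 1 kb of the gene body, SOX2 regions called in mitotic replicate 1 lay at none of 7 linker histone genes, at the variant genes H3f3a, H2ax and Macroh2a2, at Pou2f1 and Nfya among those of transcription and processing, and at the chaperone genes Nasp, Asf1a, Chaf1b and Hira. H3f3a, which encodes the replication-independent H3.3, had SOX2 folds of 12.2 and 10.2 in asynchronous and 5.29 and 5.21 in mitotic cells. Pou2f1, which encodes the octamer-binding OCT1, had 13.2 and 9.12, and 4.45 and 5.08. These 2 had a SOX2 region called in both mitotic libraries, which no core histone gene had. Of all protein-coding genes 1.26% had a SOX2 peak of mitotic replicate 2 within 1 kb of the gene body. The upper limit for 0 of 61 members was 5.92%, so the absence does not set the members apart. H3f3a and Pou2f1 are also longer than most core histone genes and so have wider windows. At Lsm11, a component of the U7 snRNP that cleaves histone pre-mRNA, the CTCF folds were 23.6 and 20 in asynchronous and 15.4 and 9.52 in mitotic cells.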

How the data were processed

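ChIP-seq peak lists of SOX2 (antibody AF2018) and CTCF (antibody ab70303) were used, 2 asynchronous and 2 mitotic libraries per factor, grouped by sample titles; the other 78 libraries were not analysed here. The tools listed in the submitters' processing notes are MACS2 2.1.1.20160309, BWA 0.7.17, CASAVA 1.4 and SAMtools, and the build is mm10. For their options, read filters and control library, nothing is given in the sources used here. Each library has its own deposited list, with a display score (not used), fold enrichment as a ratio at the summit, −log10 p-values and −log10 q-values, and these were used only within a list.

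Members and lists were chosen with earlier results of these data known. Merged asynchronous peaks with a peak in both libraries were the regions; an overlap of 1 bp counted. Genes came from the RefSeq table and promoters from RefSeq sequences of GRCm38.p6, matched by gene. Genes named were those with the highest fold, regions called in a mitotic library by asynchronous strength, the 5 strongest called in neither, and list genes with a mitotic peak. Background coverage was solved from fold and −log10 p under a Poisson model in up to 2000 peaks per list. A whole-number coverage gave the deposited −log10 p within 0.02 in 99.3% to 100% of them, and the lowest background of each list was used. Wilson intervals were at 95%. Python 3.11.15, pandas 2.3.3, scipy 1.17.1 and statsmodels 0.14.6 were used, and the interval code was tested on simulated data against bedtools. Alternatives were stricter peaks, other windows, other overlaps, regions away from tRNA genes and leaving out each library. The promoter counts under alternatives were added after the data were seen.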

Additional observations from a re-analysis of the deposited data

How the results depend on the processing

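The SOX2 peak ratio of 0.102 (mitotic over asynchronous) moved by less than its SD of 0.115 in every alternative run, with 0.0203 to 0.183 when libraries were left out: without mitotic replicate 1 the ratio was 0.0203. The SOX2 share called, 12.1%, was 3.03% to 21.2% with libraries left out, the low end without mitotic replicate 1. The difference of 16.5 points between CTCF and SOX2 kept its sign and was 7.36 to 25.5 with libraries left out. With libraries of the same number as pairs (replicate block) the peak ratios were 0.0942 and 0.301 and the shares called 8.19% and 24.8% for SOX2 and CTCF. The labels do not say what a shared number means.

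Away from tRNA genes the CTCF peak ratio was 0.177 in place of 0.3 and the CTCF share called 20.8% in place of 28.6%. The SOX2 ratio was 0.0535 and the SOX2 share 6.41%, each lower by more than 1.5 times. The SDs of the main SOX2 ratio and share (0.115 and 12.9) exceed the values themselves, so they cannot judge a decrease. A 100 kb window gave a CTCF ratio of 0.383. Leaving out a library gave CTCF ratios of 0.253 to 0.347 and shares of 23.4% to 33.8%. With a fold of at least 5, 33 in place of 53 members had a SOX2 region at the gene and 10 in place of 41 a CTCF region, and 20 had a CTCF region on the gene body alone. The promoter count with CTCF was then 2 in place of 17.

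The density ratios depended most on the window. For SOX2, 4.66 became 5.63 with a fold of at least 5, 6.99 at 10 kb, 4.09 at 100 kb, 3.68 away from tRNA genes and 3.95 with regions of either library. For CTCF, 3.23 became 2.98 with a −log10 q of at least 5, 2.42 with a fold of at least 5, 4.57 at 10 kb, 2.65 at 100 kb, 2.73 away from tRNA genes and 3.52 with regions of either library, and 3.34 to 3.43 with an asynchronous library left out. All stayed above 1. The causes were not tested, and 2 libraries per group allow no p under 0.333.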

Other observations

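The tRNA genes within the windows can be read on their own. A SOX2 region lay within 1 kb of 28 of the 30 (93.3%), against 63.7% of all 408 tRNA genes in the table. Mitotic SOX2 peaks lay there at 18 of 30 in replicate 1 (60%; all tRNA genes 37.5%) and at 6 of 30 in replicate 2 (20%; 9.56%). CTCF regions lay there at 16 of 30 (53.3%; 47.1%), and mitotic CTCF peaks at 21 (70.0%; 51.5%) and 17 (56.7%; 40.2%). Neighbouring tRNA genes share peaks, and no test was made.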
